A study of Mus musculus with 4 samples.

Results

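The Frizzled receptor genes Fzd1 to Fzd10 were examined in the accessible chromatin of the mouse facial surface ectoderm. The members were the 10 genes with these names among 21938 protein-coding genes, and each was given the peaks centred within 100 kb of the start site of its principal transcript. This assigned 119 of the 65467 control peaks and 5 of the 3103 AP-2-dependent regions to the family. ATAC-seq, in which a transposase inserts sequencing adapters into nucleosome-free DNA, had been carried out on surface ectoderm removed from the facial prominences at E11.5, with 2 control and 2 EDKO libraries. EDKO embryos carried Crect and were homozygous for floxed alleles of both genes (Tfap2a flox/flox; Tfap2b flox/flox), so that the transcription factors AP-2α and AP-2β were removed from the ectoderm. Control littermates had 1 floxed copy of each gene (Tfap2a flox/+; Tfap2b flox/+) and no Crect, so floxed alleles were present in all 4 libraries. Crect is a Cre line under an intronic enhancer of Tfap2a itself. Recombination beyond the ectoderm has been described for it, and the study passed it through sires whose recombination pattern had been checked. The control libraries were called jointly to give the control peaks. A second joint call, with the EDKO libraries as its background, gave the AP-2-dependent regions, which are places more accessible in control than in EDKO ectoderm. No peak therefore has a value per library or an error between replicates, the number of reads behind a peak is unknown, and everything below describes these combined lists without a test between groups. In such bulk tissue, fewer cells with an open site and less opening per cell cannot be told apart.

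Frizzled proteins are receptors with 7 membrane-spanning segments and an extracellular cysteine-rich domain that binds WNT ligands. Together with the co-receptors LRP5 and LRP6 they signal through Dishevelled to stabilise β-catenin, which then acts with TCF/LEF factors in the nucleus, and some of them also act in planar cell polarity without β-catenin. By sequence the family falls into Fzd1, Fzd2 and Fzd7, Fzd5 and Fzd8, Fzd9 and Fzd10, Fzd3 and Fzd6, and Fzd4 alone. WNT signals from the facial ectoderm act on the ectoderm itself and on the neural crest mesenchyme beneath it, and they are required for outgrowth of the face and closure of the lip.

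The lists carried marks of surface ectoderm, though start-site peaks at marker genes were not limited to it. A control peak lay over the start site of all 10 surface ectoderm markers listed (Tfap2a, Trp63, Krt5, Krt14, Krt8, Krt18, Epcam, Esrp1, Cdh1 and Grhl3), of 5 of 6 genes listed for mesenchyme and neural crest, with none at Pdgfra, and of 1 of 5 markers of endothelium and blood, Kdr. Among all protein-coding genes 61.6% had a start-site peak. One of the 6 mesenchyme and neural crest genes, Tfap2b, does not mark mesenchyme here. It is active in the facial ectoderm and was deleted there in EDKO embryos. Without it 4 of 5 had a start-site peak. Of these 4, Snai2 had the highest summit −log10 p, 10.9, and Prrx1 the lowest, 3.27. The values of the 10 surface ectoderm markers ran from 6.77 at Krt8 to 12.4 at Esrp1, so Snai2 lay within their range. The part of the mesenchymal peaks in the results below was not tested. The −log10 p quoted throughout is the value at the summit of a peak as the peak caller gave it, unadjusted for the number of positions, and is used here to rank peaks within 1 list.

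All 10 Frizzled genes had a control peak over the start site, compared with 61.6% of all protein-coding genes, and these peaks were broad. Their median width was 3520 bp, from 1401 bp at Fzd6 to 4967 bp at Fzd7, whereas the 12355 control peaks holding any protein-coding start site had a median of 1388 bp. At all 10 genes the peak was wider than that median, and at 7 it belonged to the widest 10% of start-site peaks. The signal at the summit stood out less, with a median −log10 p of 11.6 for the family and 9.55 for all start-site peaks, and 8 of the 10 lay above the latter. None of the 10 start-site peaks overlapped an AP-2-dependent region. Among all control peaks holding a start site 1.07% did, and a count of 0 in 10 allows a share of up to 30%.

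Fzd1, Fzd2 and Fzd7, closely related receptors each encoded by a single coding exon, had the 3 highest summits of the 10. The Fzd7 peak (chr1:59480746-59485712, GRCm38) was 4967 bp wide with a −log10 p of 13.8, which placed it at the 98.9th percentile of all control peaks. Only 72 of the 12355 start-site peaks, 0.591%, were wider. It ran from 1678 bp upstream to 3288 bp downstream of the start site and covered 100% of the Fzd7 coding sequence. Its summit lay 430 bp upstream of the start site, the largest offset in the family. The Fzd2 peak (chr11:102602540-102606541) was 4002 bp wide with a −log10 p of 12.9 and likewise covered the whole coding sequence. The Fzd1 peak (chr5:4755818-4759019) was 3202 bp wide with a −log10 p of 12.2, had its summit 3 bp upstream of the start site, and covered 91.5% of the coding sequence.

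Fzd5 and Fzd8 form the second pair with single coding exons. The Fzd5 peak (chr1:64734666-64739149) was 4484 bp wide with a −log10 p of 11.5, and it reached 3085 bp into the gene. The Fzd8 peak on chromosome 18 was 3838 bp wide with a −log10 p of 10.7 and reached 3233 bp into the gene. Both peaks covered 100% of the coding sequence, so that 4 of the 10 Frizzled genes, with Fzd2 and Fzd7, had their entire coding exon within 1 interval of accessible chromatin.

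Fzd10 and Fzd9, also with single coding exons, had the lowest summits of the family, at −log10 p values of 9.12 and 8.46. Their widths differed. The Fzd10 peak (chr5:128598778-128602622) was 3845 bp wide, extended 2066 bp upstream, further than at any other member, and covered 80.5% of the coding sequence. The Fzd9 peak (chr5:135250127-135251804) was 1678 bp wide and covered 50.8%. Among start-site peaks Fzd10 thus lay at the 98.0th percentile by width and the 44.2nd by −log10 p, and Fzd9 at the 66.0th and the 36.8th.

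Fzd4, which besides WNT ligands binds norrin, has 2 coding exons. Its peak (chr7:89402952-89405454) was 2503 bp wide with a −log10 p of 11.6 and took in the first coding exon, 17.7% of the coding sequence. Fzd3 and Fzd6, which are best known for their roles in planar cell polarity, have 6 coding exons each. Their peaks (chr14:65261039-65262990 and chr15:39005737-39007137) were 1952 and 1401 bp wide with −log10 p values of 11.7 and 9.83, and they covered 0% of the coding sequence.

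**Figure D1:**
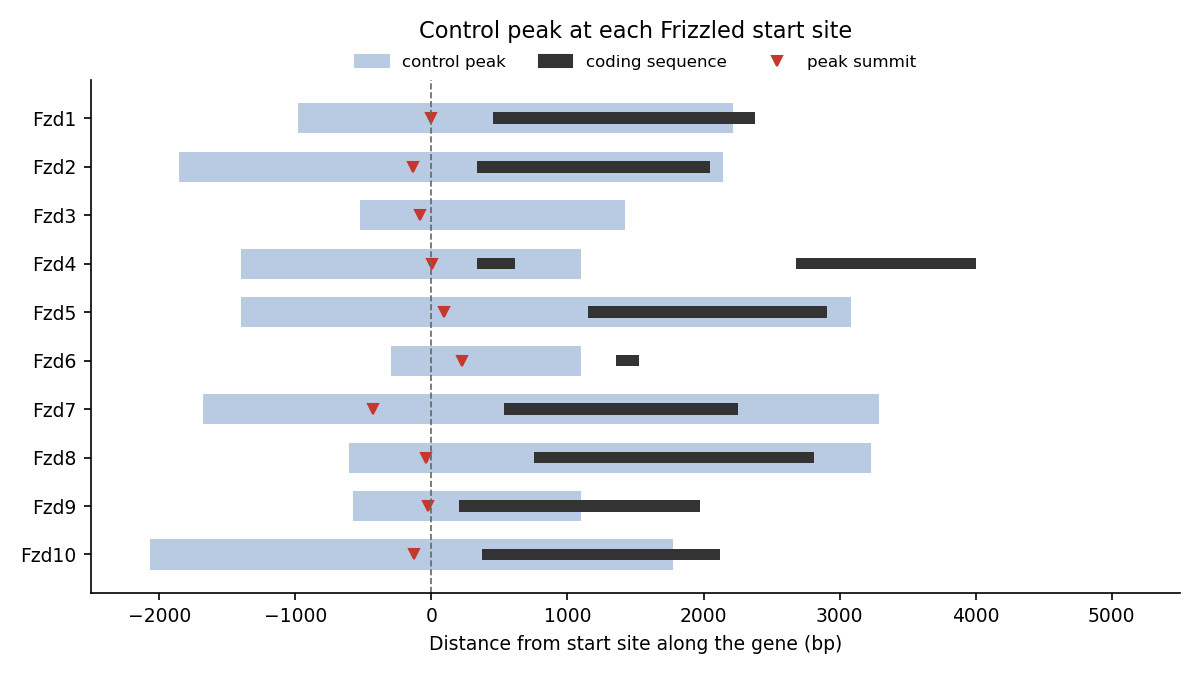
Extent of the control peak at each Frizzled start site (light bars), coding sequence of the principal transcript (dark bars) and peak summit (triangles), as distance in bp from the start site along the gene, with the start site at 0. The peaks of Fzd2, Fzd5, Fzd7 and Fzd8 enclose the whole coding sequence, while those of Fzd3 and Fzd6 end before the first coding exon, which at Fzd3 lies beyond the plotted range.

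The breadth was compared with that at other genes of the same structure, since a single coding exon puts the coding sequence close to the start site. The 963 other genes with 1 coding exon and a start-site peak had a median peak width of 1466 bp and a 90th percentile of 2822 bp. The 698 others with 2 coding exons had a median of 1457 bp, and the 12538 others with 2 or more a median of 1410 bp. The 8 Frizzled genes with 1 or 2 coding exons had a median of 3842 bp, and 6 of them exceeded 2822 bp. All 7 single-exon Frizzled genes had a start-site peak, whereas among all 3606 protein-coding genes with 1 coding exon 26.9% had one. GC content was close to that of other start-site peaks, with a median of 60.7% for the family and 59.0% for all, and the observed to expected ratio of CpG was 0.713 and 0.681.

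**Figure D2:**
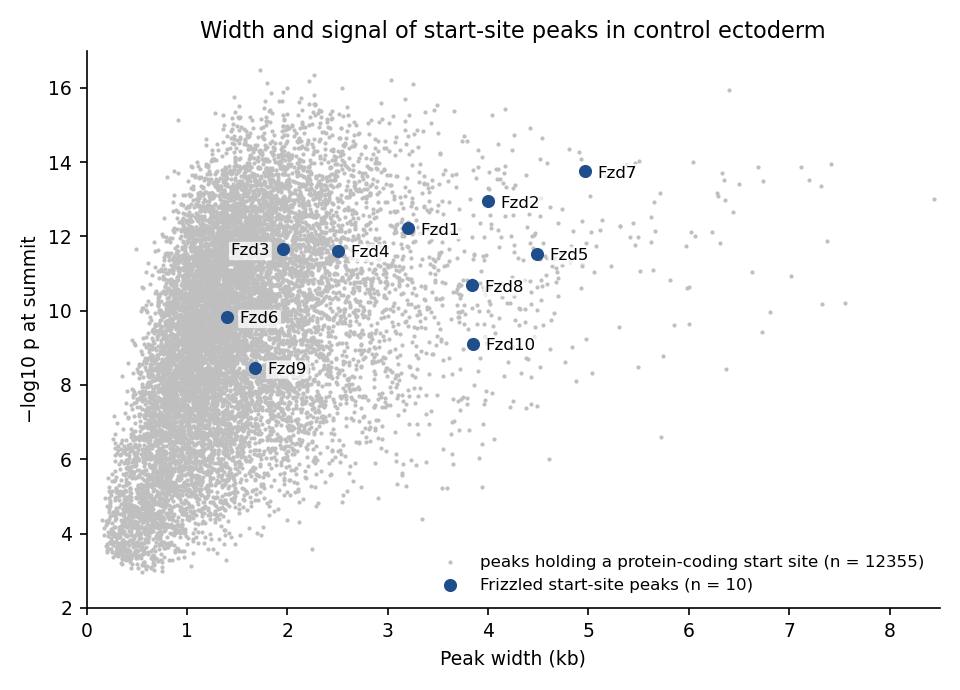
Width in kb and −log10 p at the summit of the 12355 control peaks that hold a protein-coding start site (grey) and of the 10 at Frizzled start sites (blue, labelled). Fzd1, Fzd2, Fzd5, Fzd7, Fzd8 and Fzd10 lie between 3.202 and 4.967 kb, to the right of most grey points, and 9 grey points lie beyond the axes, which end at 8.5 kb and 17.

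Promoter sequences are shown for Fzd7, the member with the widest and strongest start-site peak, and for Fzd4, which held the AP-2 string GCCNNNGGC. The RefSeq promoter table (GRCm38.p6) had an entry for 6 members and none for Fzd2, Fzd3, Fzd6 and Fzd8. In the 250 bases before the start site of RefSeq, Fzd4 held 1 string, Fzd10 held 2 and the other 4 held 0. Both strings of Fzd10 lay downstream of its GENCODE start site, in the untranslated part of the transcript, and its sequence is not shown. Further strings in the Fzd10 start-site peak lay 143 and 496 bp upstream of the GENCODE start site, outside the 250 bases searched here. Capitals mark the AP-2 string, and each sequence ends just before the start site of RefSeq (Fzd7) or of GENCODE (Fzd4), whichever lies further upstream. Both strands were searched, here and for the other strings below. The Fzd7 window lies at chr1:59481897-59482146 on the plus strand and the Fzd4 window at chr7:89404116-89404354 on the plus strand.
Fzd7: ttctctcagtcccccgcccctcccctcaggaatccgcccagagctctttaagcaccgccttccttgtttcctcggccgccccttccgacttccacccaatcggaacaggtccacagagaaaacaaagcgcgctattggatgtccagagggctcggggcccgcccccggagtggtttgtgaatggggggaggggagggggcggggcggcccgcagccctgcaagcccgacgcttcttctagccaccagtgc
Fzd4: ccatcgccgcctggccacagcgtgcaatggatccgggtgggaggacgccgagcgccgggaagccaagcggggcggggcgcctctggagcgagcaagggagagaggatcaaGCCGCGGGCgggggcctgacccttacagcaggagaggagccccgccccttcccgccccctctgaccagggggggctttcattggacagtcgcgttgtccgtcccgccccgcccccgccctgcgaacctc
The string in Fzd4 began at base 111 of the window, 129 bp upstream of the GENCODE start site. Of the 32851 promoters of the table, 13.7% held the string in the 250 bases before the start site.

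Over the whole width of the peaks AP-2 strings were common, as in other start-site peaks. They occurred in 8 of the 10 Frizzled start-site peaks, 80% with a 95% Wilson interval of 49.0 to 94.3%. Of all start-site peaks 67.4% held one, or 83.1% once weighted to the same width classes. These were 10 classes over all control peaks, and the widest held both the Fzd9 peak of 1678 bp and the Fzd7 peak of 4967 bp. The weighting is therefore coarse for the wide Frizzled peaks. Fzd10 had the most, with 6 strings, of which 4 lay between 55 and 393 bp downstream of the start site and the nearest to the summit lay 14 bp from it. Fzd7 had 4 strings, Fzd3 and Fzd4 had 3 each, Fzd1 and Fzd5 had 2 each, and Fzd2 and Fzd8 had 1 each. Fzd6 and Fzd9 had 0. Only at Fzd5 and Fzd10 did a string lie within 100 bp of the summit, 20% of the 10 compared with 22.8% of all start-site peaks. The TEAD string GGAATG was found in 4 of the 10, compared with 47.9% of all start-site peaks, or 63.0% weighted by width class. The TCF/LEF string CTTTGAT and the GRHL string AACCGGTT were found in 0 of the 10, compared with 12.2% and 1.13%. Weighted by width class these shares were 17.3% and 1.68%.

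The consensus string of CTCF, a factor of insulators and chromatin loops, was found in 5 of the 10 Frizzled start-site peaks, those of Fzd1, Fzd2, Fzd5, Fzd7 and Fzd8. It occurred in 4.23% of all start-site peaks, or in 5.70% once weighted to the same coarse width classes. The string was located in each of the 5 peaks, and all 6 matches (Fzd8 had 2) lay in the coding exon, between 1375 and 2139 bp downstream of the start site. None lay within 100 bp of a summit, and the nearest was 1451 bp away. In Fzd1, Fzd2, Fzd5 and Fzd7 the string sat in a coding stretch that these genes have in common. The 41 bases around it are shown on the strand of the gene, with the string in capitals, to let the shared sequence be seen. They lie at chr5:4756321-4756361 on the minus strand for Fzd1, chr11:102605756-102605796 on the plus strand for Fzd2, chr1:64735587-64735627 on the minus strand for Fzd5 and chr1:59483990-59484030 on the plus strand for Fzd7 (GRCm38).
Fzd1: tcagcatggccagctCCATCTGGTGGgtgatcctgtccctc
Fzd2: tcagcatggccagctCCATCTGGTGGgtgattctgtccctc
Fzd5: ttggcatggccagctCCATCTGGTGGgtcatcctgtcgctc
Fzd7: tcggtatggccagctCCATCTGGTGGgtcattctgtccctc
Fzd1 and Fzd2 had 40 of the 41 bases in common, and the other pairs had between 36 and 38. When the Fzd7 stretch was laid along the coding sequence of every member without gaps, the best place started at the second position of a codon in all 10. It held the string in 5 of them, the same 5 genes, and matched 36 of 41 bases in Fzd8. Fzd4 matched 35 of the 41 bases, with 10 of the 11 bases of the string, and Fzd10, Fzd9, Fzd3 and Fzd6 matched 32, 31, 28 and 27. The stretch lay between 41.8% and 64.1% along the coding sequence. Of the coding sequences of all protein-coding genes 4.02% held the CTCF string, and of 1961 other genes in the length and GC range of the Frizzled coding sequences 5.20% did. Since the 5 genes share this stretch, their matches are not independent of each other. An AP-2 string was shared in the same way by Fzd2 and Fzd7, in both of which it began 140 bases after the CTCF string.

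The aligner kept several placements per read pair, so the sequence shared between members was counted. Of the 31-base words of the coding sequences, 67 of 1896 in Fzd1, 69 of 1680 in Fzd2 and 35 of 1686 in Fzd7 occurred in another member of this trio. The other 7 members shared 0 with any Frizzled gene. All 119 peaks had a median copy number of 1 for their 31-base words in the genome, and the start-site peaks of Fzd1, Fzd2 and Fzd7 were 98.0%, 97.1% and 99.0% unique. The part of reads placed at several members was not tested.

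Around the start sites the number of control peaks varied widely between members. Within 100 kb there were 22 at Fzd10, 20 at Fzd3, 14 at Fzd6, 13 at Fzd7, 12 at Fzd2, 11 at Fzd1, 9 at Fzd5, 8 at Fzd9, 7 at Fzd4 and 3 at Fzd8. The median was 11.5 for the family and 8 for all protein-coding genes, of which the middle 50% had from 4 to 13. Fzd10 therefore had more peaks than most genes (94.1st percentile) and Fzd8 fewer (21.9th). Of the 119 peaks, 65 were centred upstream and 54 downstream, 100 lay more than 5 kb from the start site, and 67 had their summit between annotated genes. For 66 of them, 55.5%, the Frizzled start site was the nearest protein-coding start site, and 10 held the start site of another gene.

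**Figure D3:**
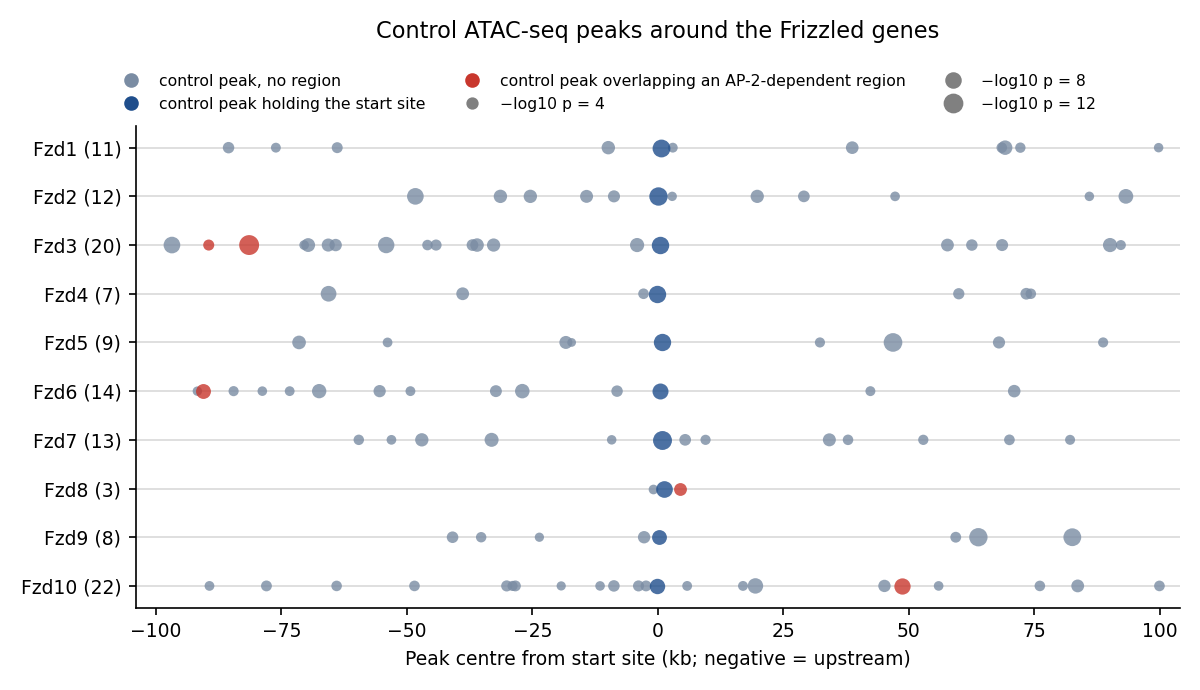
Control peaks within 100 kb of each Frizzled start site, by distance of the peak centre in kb along the gene's strand. The area of each point is proportional to the −log10 p at the summit, colours mark peaks at the Frizzled start site (dark blue) and peaks overlapping an AP-2-dependent region (red), and the number of peaks is given beside each gene. The 22 peaks of Fzd10 are spread on both sides, Fzd8 has 3 peaks, all close to the gene, and 5 peaks are red.

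Fzd8 and Fzd10 marked the extremes. At Fzd8, all 3 peaks lay within 5 kb of the start site, and the nearest control peak further out was 112 kb away, although no other protein-coding start site came closer than 70.6 kb. At Fzd10, 18 of the 22 peaks had Fzd10 as their nearest protein-coding gene. The next protein-coding start site, that of Piwil1, was 135 kb away. The Fzd10 peaks centred from 2.34 to 19.2 kb upstream had their summits within a non-coding gene, 5930412G12Rik. By this measure Fzd1 was even more isolated, with the next protein-coding start site at 566 kb. Its start site was the nearest for all 11 of its peaks. Those at 63.9, 76.1 and 85.5 kb upstream nevertheless had their summits in introns of another gene, Cdk14. The peaks away from the start site had median −log10 p values of 4.47 over 10 peaks at Fzd1 and 4.37 over 21 at Fzd10. Fzd7 was lower, at 4.23 over 12 peaks. All control peaks holding no protein-coding start site had a median of 4.67. Over all members the 109 other peaks had a median of 4.88 and a range of 2.94 to 15.2.

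The start-site peak was the strongest peak within 100 kb at 6 of the 10 genes, Fzd1, Fzd2, Fzd4, Fzd6, Fzd7 and Fzd8. At Fzd5 and Fzd9 a stronger peak belonged to a neighbour's start site. It had a −log10 p of 13.4 at Ccnyl1, 46.9 kb from Fzd5, and of 12.9 at Baz1b, 63.9 kb from Fzd9. At Fzd3 and Fzd10 the strongest peak lay at no start site, and in both cases it overlapped an AP-2-dependent region. The Fzd3 peak (chr14:65342932-65344857), 81.4 kb upstream, had a −log10 p of 15.2 and was the strongest of all 119. It stood at the 99.8th percentile of control peaks, and 149 control peaks in the genome were as strong or stronger, of which 45.6% held a protein-coding start site. Its summit lay 14.5 kb from the nearest start of any annotated transcript, that of Zfp395, and it held 1 TEAD and 1 GRHL string. The Fzd10 peak (chr5:128648828-128650331), 48.7 kb downstream, had a −log10 p of 10.2, against 9.12 at the Fzd10 start site.

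AP-2-dependent regions lay within 100 kb of 4 of the 10 Frizzled genes, Fzd3 with 2 and Fzd6, Fzd8 and Fzd10 with 1 each. Among all protein-coding genes 20.2% had at least 1 region at this distance. The Wilson interval for 4 of 10 runs from 16.8% to 68.7% and includes that share. By peaks, 5 of the 119 Frizzled control peaks overlapped a region, 4.20% with an interval of 1.81 to 9.46%, compared with 4.48% of all control peaks and 3.65% of control peaks within 100 kb of any protein-coding start site. The interval for the Frizzled peaks includes both of these shares. Wilson intervals here cover counting error only.

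The sequences of the regions on chromosomes 5, 14 and 15 are shown because they are 4 of the 5 intervals within 100 kb of a Frizzled gene that were called as more accessible in control than in EDKO ectoderm. The sequence of the fifth, in the untranslated part of Fzd8, is not shown. Each run gives up to 300 bases around the summit on the plus strand of GRCm38, with AP-2 strings (GCCNNNGGC) and TEAD strings (GGAATG or its complement) in capitals. The windows lie at chr5:128649503-128649802 for Fzd10, chr14:65343814-65344113 and chr14:65351777-65352076 for Fzd3, and chr15:38915371-38915664 for Fzd6.
Fzd10, 48.7 kb downstream: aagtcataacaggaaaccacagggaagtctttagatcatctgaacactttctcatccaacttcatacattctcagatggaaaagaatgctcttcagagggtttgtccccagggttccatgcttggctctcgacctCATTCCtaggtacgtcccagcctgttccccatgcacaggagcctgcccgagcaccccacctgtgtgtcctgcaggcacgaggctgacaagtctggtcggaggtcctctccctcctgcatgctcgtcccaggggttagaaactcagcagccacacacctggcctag
Fzd3, 81.5 kb upstream: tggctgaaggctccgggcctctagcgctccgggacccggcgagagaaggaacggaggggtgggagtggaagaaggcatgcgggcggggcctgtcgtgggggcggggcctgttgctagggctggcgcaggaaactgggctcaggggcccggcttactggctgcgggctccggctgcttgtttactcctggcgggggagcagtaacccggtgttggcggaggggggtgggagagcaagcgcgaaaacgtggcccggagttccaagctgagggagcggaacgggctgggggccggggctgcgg
Fzd3, 89.5 kb upstream: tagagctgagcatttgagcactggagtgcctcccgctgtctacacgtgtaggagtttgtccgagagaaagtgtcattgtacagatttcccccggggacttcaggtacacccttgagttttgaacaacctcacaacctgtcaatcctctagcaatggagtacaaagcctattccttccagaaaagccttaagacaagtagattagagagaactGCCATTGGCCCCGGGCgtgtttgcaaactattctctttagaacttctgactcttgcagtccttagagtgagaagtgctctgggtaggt
Fzd6, 90.5 kb upstream: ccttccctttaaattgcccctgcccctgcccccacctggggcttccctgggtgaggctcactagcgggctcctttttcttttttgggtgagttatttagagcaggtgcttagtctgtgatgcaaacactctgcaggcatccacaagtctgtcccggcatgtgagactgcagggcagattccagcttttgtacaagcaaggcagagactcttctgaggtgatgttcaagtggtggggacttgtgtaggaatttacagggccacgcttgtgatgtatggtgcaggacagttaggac
Only the Fzd3 region 89.5 kb upstream held AP-2 strings, a pair that overlapped and began at bases 213 and 220 of the window, with the summit at base 170. Of 3072 such windows over all AP-2-dependent regions, 26.0% held the string.

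The Fzd10 region (chr5:128648950-128650126) was the strongest of the 5. It was 1177 bp wide, and its area under the curve, the sum of the −log10 p above the caller's threshold, was 2735. This placed it at the 94.9th percentile of all 3103 regions. Its −log10 p was 8.95, it filled 78.3% of the control peak it lay in, and both had their summit at the same base. It was intergenic, Fzd10 was the nearest protein-coding gene, and the window above held a TEAD string that began 14 bases before the summit.

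The 2 Fzd3 regions lay closer to Zfp395 than to Fzd3, at 14.7 and 6.75 kb from the Zfp395 start site. The first (chr14:65343795-65344164) was 370 bp wide, and its area under the curve was 409 at a −log10 p of 5.64. It filled 19.2% of the strongest control peak of the family, described above, and its GC content was 69.2%. Its summit was 113 bp from that of the control peak. The second (chr14:65351769-65352076) lay in an intron of the non-coding gene Gm48449, and its area of 219 was close to the lowest in the list, at the 7.03rd percentile. It filled 50.1% of a control peak with a −log10 p of 4.69.

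The Fzd6 region (chr15:38915371-38915664) was intergenic, 17.6 kb from the start site of Baalc and 90.5 kb from that of Fzd6. Its area under the curve was 532 with a −log10 p of 5.47, and it filled 31.9% of a control peak with a −log10 p of 8.51. The Fzd8 region was the only 1 of the 5 inside a Frizzled gene. It was 310 bp wide, on chromosome 18 and 4.90 kb downstream of the start site, in the 3′ untranslated part of the transcript. Its area of 245 was low, at the 16.1st percentile of all regions, its −log10 p of 4.30 lay at the 45.9th percentile, and it filled 26.9% of a control peak separate from the start-site peak. For 2 of the 5 regions, those of Fzd8 and Fzd10, a Frizzled gene was thus the nearest gene. Of the 66 control peaks nearest to a Frizzled start site 2 overlapped a region, 3.03% with an interval of 0.835 to 10.4%.

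The limit of 100 kb decided some of these assignments. Just inside it were the regions of Fzd6 at 90.5 kb and Fzd3 at 89.5 kb. Just outside it were a region 112 kb upstream of Fzd8 (area 455, nearest protein-coding gene Fzd8), a region 155 kb upstream of Fzd2 and 2.003 kb from the start site of Fam171a2, and a region 202 kb downstream of Fzd4. The control peaks nearest the limit lay at 99.98 kb (Fzd10) and 99.81 kb (Fzd1) inside and at 101.8 kb (Fzd9) and 102.4 kb (Fzd7) outside. Fzd5, Fzd7 and Fzd9 had 0 regions within 100 kb, as did Fzd1, Fzd2 and Fzd4.

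In the control peaks away from start sites the strings were about as frequent around the Frizzled genes as elsewhere. Of the 99 Frizzled peaks that held no start site, 23 held the AP-2 string, 23.2% compared with 24.2% of 52943 such peaks, and 37 held the TEAD string, 37.4% compared with 37.3%. The TCF/LEF string occurred in 11.1% compared with 10.1%, the CTCF string in 5.05% compared with 8.40%, and the GRHL string in 2.02% compared with 0.587%, the last a count of 2 peaks. All 5 Wilson intervals for the Frizzled shares included the share over all peaks. A match to such a string is a description of the letters and not evidence that a factor binds there.

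Beside the receptors, the ligands had more regions. Within 100 kb of the 19 Wnt genes, which encode the ligands, 18 of 239 control peaks overlapped a region, 7.53% with an interval of 4.82 to 11.6%. The share over all control peaks was 4.48%. It was higher still around the 10 surface ectoderm markers listed above, at 10.4% (18 of 173). At least 1 region lay near 13 of the 19 genes, compared with 20.2% of all protein-coding genes. The Wnt genes also had more control peaks each, a median of 19 against 11.5 for the Frizzled genes. Wnt9b with 8 regions and Wnt3 with 7 had the most, and several Wnt genes are neighbours that share regions. Of the 18 overlapping peaks 7 lay around Wnt9b, so these peaks were not independent, which the interval takes no account of. Co-receptors were at 1.22% (1 of 82 peaks, near Ryk). Genes of receptor turnover, which include the Frizzled-removing ubiquitin ligases Rnf43 and Znrf3 and the R-spondins that inhibit them, were at 4.55% (5 of 110). Secreted antagonists were at 3.91% (5 of 128), 3 of these near Sostdc1, and intracellular and nuclear components at 3.17% (6 of 189), among them Axin2, Ctnnb1, Lef1 and Tcf7l1. Planar polarity partners were at 3.85% (3 of 78), near Celsr1, Celsr2 and Vangl1. Other partners and relatives of the receptors were at 4.17% (3 of 72), near Smo, a receptor of the Hedgehog pathway, Tspan12, a partner of Fzd4, and Kremen1. The intervals for ligands and receptors overlapped, and no difference between the lists was tested. The start-site peaks of the Frizzled genes had the largest median width of the 8 groups, 3520 bp, followed by the Wnt genes with 2788 bp. Next came intracellular and nuclear components with 2206 bp, planar polarity partners with 2144 bp and co-receptors with 1916 bp. No Frizzled start-site peak and 3 of the 17 Wnt start-site peaks overlapped a region, compared with 1.07% of all start-site peaks.

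**Figure D4:**
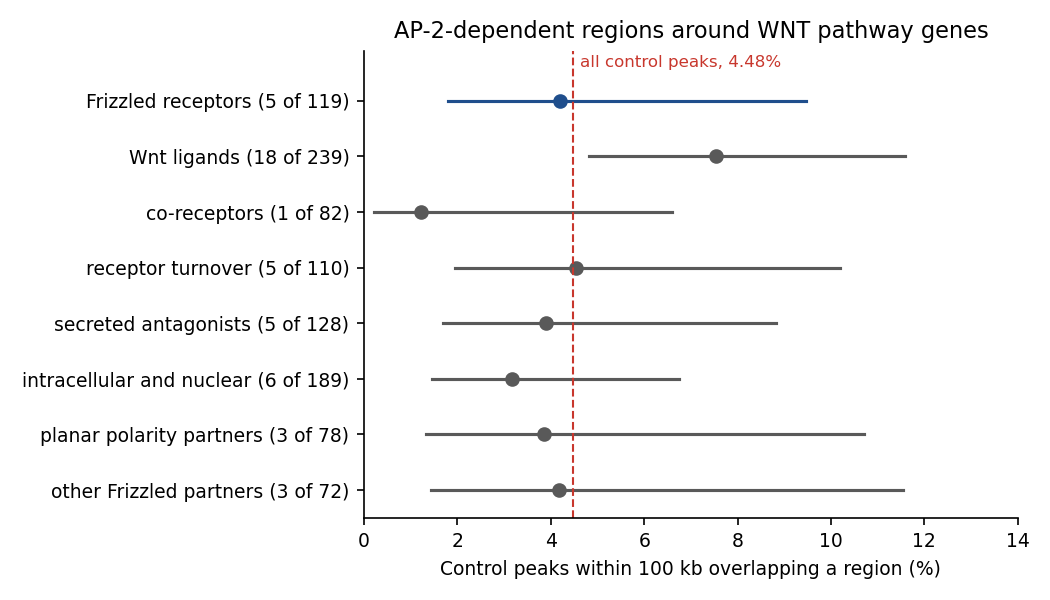
Share in percent of the control peaks within 100 kb of the genes of each group that overlapped an AP-2-dependent region, with 95% Wilson intervals as lines and counts beside the names. The Frizzled receptors (blue, 4.20%) sit beside the share of all control peaks (dashed, 4.48%), and only the interval of the Wnt ligands lies wholly to its right. The intervals treat peaks as independent, although 7 of the 18 overlapping peaks of the Wnt ligands lay around Wnt9b.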

How the data were processed

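Peaks came from 4 E11.5 libraries (2 control, 2 EDKO). The authors trimmed reads with NGmerge, aligned them to mm10 with Bowtie2, keeping several placements per pair, and called peaks with Genrich on the combined libraries, with PCR duplicates and mitochondrial reads removed. The deposited score is the area under the curve per bp of width, multiplied by 1000 and capped at 1000, and the area itself is also a score made by the authors. The deposited −log10 p is that of the summit, unadjusted.

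Here start sites were those of APPRIS principal transcripts of GENCODE on 21 chromosomes (GRCm38, with all peaks within chromosome lengths). Distances were taken from peak centres, overlaps counted from 1 bp, and strings matched on both strands. Programs (Python 3.11.15, pandas 2.3.3, pysam 0.24.0) were tested on simulated intervals. Every member was named, with its start-site peak, its strongest peak and its regions, and other WNT genes only where they had a region. Members, gene lists and strings were chosen with earlier results of these data known. Coverage and reads were not analysed here.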

Additional observations from a re-analysis of the deposited data

How the results depend on the processing

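For 6 results, 38 alternative values were computed, of which 6, with RefSeq start sites, were chosen after seeing the data. Of these, 28 were labelled as the same and 10 as moved, and all 6 with RefSeq start sites were among the 28. The label was broad. It took in the 4 genes becoming 6 or 3, and the share of 4.20% becoming 2.67% at an area of at least 500. Counts and shares of this kind have no direction that could reverse. The 119 control peaks became 66 at a limit of 50 kb, 241 at 250 kb, 75 where the area of the peak had to reach 500, and 66 when the Frizzled start site had to be the nearest. The 4 genes with a region became 2 at 50 kb and 2 at an area of at least 500, where 11.04% and 7.89% of all protein-coding genes had a region. They numbered 6 at 250 kb, beside 41.5% of all genes. Under the basal plus extension rule, with an extension of at most 1000 kb, they numbered 3 (Fzd1, Fzd8 and Fzd10), beside 16.05%. The Fzd1 region lay 284 kb upstream, in an intron of Cdk14. The paper limited this extension to 100 kb in its pathway enrichment. The share of peaks overlapping a region, 4.20%, became 1.68% when 50% of both intervals had to overlap. The share of peaks with the AP-2 string, 31.1%, became 40% at an area of at least 500 and 17.6% within 100 bp of the summit, as shorter sequence was searched. The median percentile of the start-site peaks by −log10 p, 94.6 among all control peaks, was 76.9 among start-site peaks. The start site of the 5′-most transcript was the same as the principal one at all 10 genes. No paired analysis was possible because the lists combine the libraries, and for the same reason no library could be left out. The depth behind each peak is unknown.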
